A study of Mus musculus with 9 samples.

Results

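The Reg family lectins are small secreted proteins with a C-type lectin fold, and 6 of their mouse genes were examined here in dorsal root ganglia (DRG) after sciatic nerve transection, namely Reg1, Reg2, Reg3a, Reg3b, Reg3d and Reg3g. They were chosen by name and not by their values, through the gene name, an older symbol or the RefSeq entry of each array probe. Each gene had 1 probe with 1 spot per array, so that the family held 6 of 41174 probes and 6 of 27670 genes. The Reg3b probe carries the older symbol Pap in the scanner files. The samples were L3/L4 DRG of adult mice, 4 uninjured and 5 injured, taken 3 days after transection according to both labels and methods, although elsewhere in the study a time of 24 hr is stated. The sources also differ on the ganglia, as the sample labels name L3/L4 and the design text L4 alone. All 9 samples came from mice labelled cre.neg and jun.wt, without a Cre transgene and with the Jun gene intact, and no more precise age or strain was used here. The DRG RNA carried the Cy5 dye on every array and was hybridised against a common reference, a universal pool of mouse RNA in Cy3, and the dyes were never exchanged. The labels identify no animals and do not say whether uninjured ganglia came from injured mice, so the tests below measure the spread between these samples, which may be technical. The ganglion is a mixture of cells, in which a change in the number of cells of a type and a change of RNA per cell cannot be told apart. Sensory neuron markers were present, with 14 of 14 measured genes well above background on all 9 arrays.

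Reg proteins were first known from the pancreas and the gut, where acinar cells and the intestinal epithelium secrete them in large amounts during injury and inflammation. Members of the Reg3 group bind bacterial cell walls or limit contact between bacteria and the epithelium. Their genes are switched on by cytokines that signal through the receptor chain gp130 or the IL-22 receptor, and from there through JAK kinases and the transcription factor STAT3. In the peripheral nervous system, the rat protein that corresponds to Reg3b is known as a Schwann cell mitogen that regenerating motor and sensory neurons release.

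The 6 genes lie next to each other on mouse chromosome 6, over 98.0 kb from position 78370885 to position 78468874 of build GRCm38.p6, with no other protein-coding gene between them in RefSeq. Their order is Reg3b, Reg3d, Reg3a, Reg2, Reg1 and Reg3g. The array's own probe positions are on the older build mm7 and are all on chromosome 6, for example 78446441 to 78446500 for Reg1 and 78391237 to 78391296 for Reg3b. The 250 bases before the start of Reg1, Reg3b and Reg3g are shown because these were the 3 members whose log2 ratios did not overlap between uninjured and injured arrays. Over the 20903 genes tested, every injured array was above every uninjured one for 10.8%, and Reg3g was too dim to be among those tested. They are from RefSeq on GRCm38.p6, 5′ to 3′ on the strand of the gene, and capitals mark matches to the motifs named below.

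Reg1 (chr6:78425733-78425982, plus strand): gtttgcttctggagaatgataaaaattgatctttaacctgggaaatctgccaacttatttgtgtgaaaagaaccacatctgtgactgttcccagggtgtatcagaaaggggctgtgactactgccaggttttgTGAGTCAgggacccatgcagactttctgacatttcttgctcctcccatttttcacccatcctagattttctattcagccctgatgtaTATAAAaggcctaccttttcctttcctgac
Reg3b (chr6:78370635-78370884, plus strand): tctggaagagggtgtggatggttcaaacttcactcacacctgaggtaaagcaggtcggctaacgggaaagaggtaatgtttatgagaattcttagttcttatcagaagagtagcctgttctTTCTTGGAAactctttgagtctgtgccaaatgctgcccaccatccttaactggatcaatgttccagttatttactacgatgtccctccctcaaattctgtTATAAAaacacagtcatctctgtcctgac
Reg3g (chr6:78468875-78469124, minus strand): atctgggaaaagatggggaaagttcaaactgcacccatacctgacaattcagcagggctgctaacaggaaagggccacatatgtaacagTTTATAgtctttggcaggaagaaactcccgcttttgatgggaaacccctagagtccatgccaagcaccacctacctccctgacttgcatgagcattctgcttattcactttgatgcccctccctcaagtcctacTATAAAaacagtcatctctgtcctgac

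All 6 members were in the RefSeq promoter table, which gives 250 bases before and 50 after the start of 32851 genes and was searched on both strands. The STAT motif TTCNNNGAA was found in Reg3b (bases -129 to -121 from the start) and Reg3d, 2 of the 6, against 8.3% of all promoters. The AP-1 motif TGANTCA, which Jun and Fos proteins bind, was found in Reg1 alone (bases -117 to -111), against 7.81% of all promoters. The TATA box TATAAA was found in 4 members, at bases -30 to -25 in Reg1 and -29 to -24 in Reg3b, against 13.6% of all promoters with a match anywhere. The C/EBP motif TTGCNNAA was in Reg2 and Reg3a (10.8% of all promoters), and the cyclic AMP response element TGACGTCA was in none of the 6 (1.79%). In the 6 windows no 2 of these matches overlapped. A match is only a run of letters, and no binding was measured in these samples.

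The Reg probes were among the dim ones on the array. Signal is given first as the mean Cy5 brightness of the spot minus its local background, in scanner units, together with the scanner software's call of whether the spot is well above background. Over all probes the median Cy5 brightness before subtraction lay between 200 and 231 on uninjured and between 156 and 238 on injured arrays, and between 71.0% and 78.9% of spots were well above background. Reg1 was well above background on 2 of 4 uninjured and 5 of 5 injured arrays. Reg3b was well above background on 0 of 4 uninjured and 4 of 5 injured arrays. Each of the other 4 members reached that level on at most 1 array, with 1 for Reg2 (uninjured 4), 1 for Reg3a (injured 3), 0 for Reg3d and 1 for Reg3g (injured 5).

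**Figure D1:**
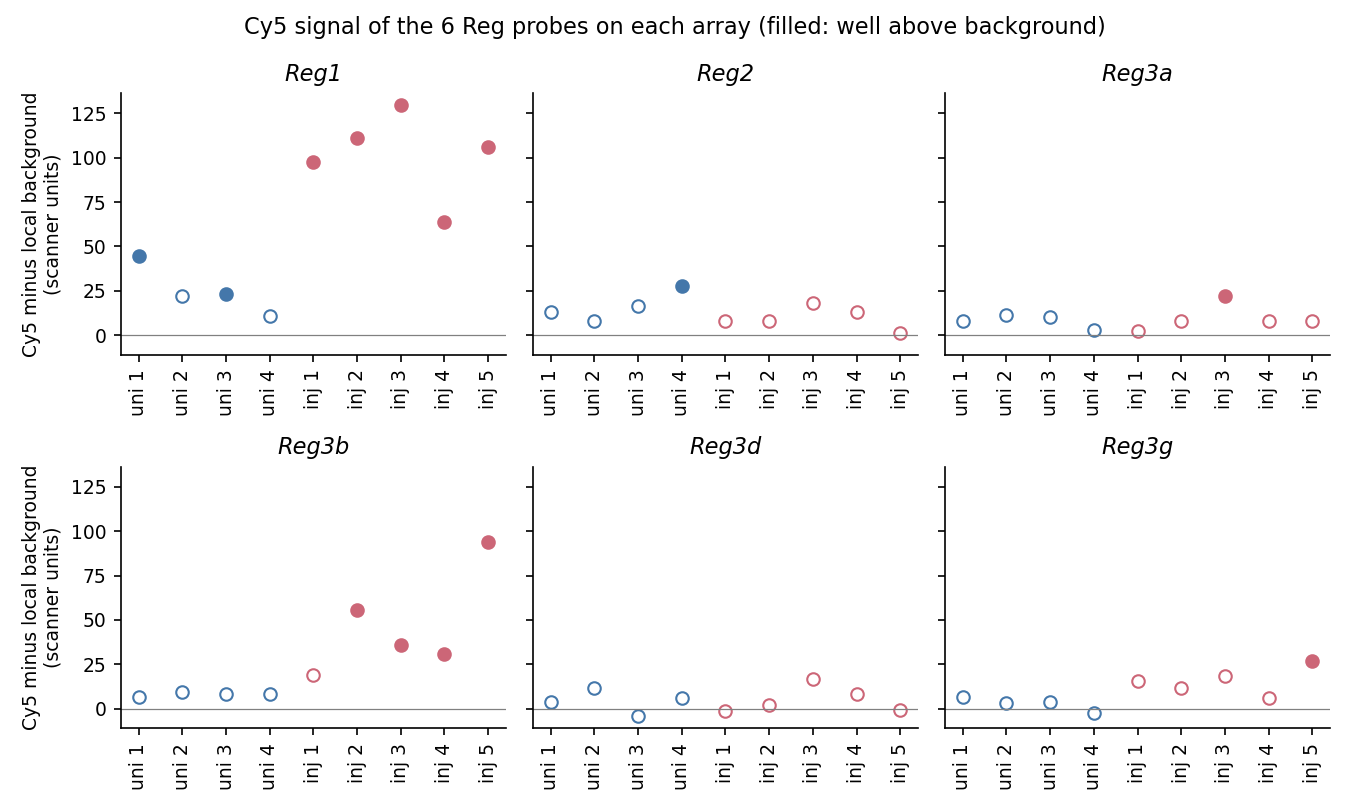
Cy5 signal minus local background, in scanner units, of each Reg probe on the 4 uninjured (blue) and 5 injured (red) arrays, with 1 point per array, filled where the spot was well above background. The injured arrays of Reg1 (63.9 to 129) and Reg3b (18.8 to 93.6) sit above all uninjured ones, while Reg2, Reg3a, Reg3d and Reg3g overlap between the groups.

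Reg1, the founding member, first described in regenerating pancreatic islets, was the member that rose past the threshold. Its Cy5 signal was 44.9, 21.9, 23.3 and 10.8 on uninjured arrays 1 to 4, a mean of 25.2 ± 14.2 (SD, n = 4). On injured arrays 1 to 5 it was 97.5, 111, 129, 63.9 and 106, a mean of 102 ± 24.1 (SD, n = 5). The groups did not overlap, and the lowest injured array, injured 4, stood above the highest uninjured one, uninjured 1. As a log2 ratio over the reference, after background correction with an offset of 50 and loess, Reg1 was 0.15, 0.14, 0.083 and 0.072 on uninjured and 0.59, 0.51, 0.59, 0.45 and 0.98 on injured arrays. The ratio on injured 5 lay well above the other 4, whereas its Cy5 signal lay among theirs, and that array had the lowest median brightness of all (156). The difference was 0.51 ± 0.098 on the log2 scale (SE), 1.43-fold, with limma's adjusted p = 0.00348 over 20903 genes. An exact permutation test (two-sided, all ways of dividing the 9 arrays into 4 and 5) gave p = 0.00794, the smallest it can give. Of all genes tested, 25.4% were called in either direction, 11.5% higher and 13.9% lower in injured DRG, and Reg1 was rank 1038 of 20903 by size of rise.

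The size of the Reg1 change depends on how a dim signal is treated. The offset of 50 added to both channels pulls the ratio of faint spots toward 0, and without it the Reg1 change was 1.04. The scanner software's own ratio gave 1.27, and the Cy5 channel alone 0.85. Reg1 was well above background in the reference channel on 7 of 9 arrays, at 3.55 to 11.8 units on uninjured and 9.61 to 15.6 on injured arrays, so the reference signal was also somewhat higher beside the injured samples. A higher reference signal lowers the ratio, and the size of that effect on Reg1 was not tested.

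Reg3b, also known as pancreatitis-associated protein, spread more widely among the injured arrays and did not pass the threshold. Its Cy5 signal was 6.55, 9.66, 8.22 and 8.47 on uninjured arrays 1 to 4, a mean of 8.22 ± 1.28 (SD, n = 4), and none of these spots was well above background. On injured arrays 1 to 5 it was 18.8, 55.5, 35.9, 30.6 and 93.6, a mean of 46.9 ± 29.3 (SD, n = 5). The groups did not overlap, but the injured arrays differed among themselves, with injured 5 highest, injured 2 next and injured 1 not well above background. The log2 ratio was 0.11, 0.15, 0.16 and 0.14 on uninjured and 0.32, 0.78, 0.37, 0.46 and 1.27 on injured arrays. The difference was 0.50 ± 0.17 (SE) with limma's adjusted p = 0.0541. Reg3b entered this fit through injured arrays alone, and without the filter on dim probes limma's adjusted p was 0.0622. For this value alone the two-sided exact permutation test gave p = 0.0238 on the log2 ratio and p = 0.0159 on the Cy5 signal. Because no uninjured array measured Reg3b, the size of its change is not settled. In Cy5 after normalization the injured mean of the log2 signal stood 1.47-fold above the uninjured one. The adjusted p of 0.0541 above belongs to the ratio. A separate fit of the Cy5 channel alone gave a log2 change of 0.67 with limma's adjusted p = 0.0377. For a lower bound, each uninjured signal was raised to the lowest signal of any probe well above background where it lay below that. This changed nothing, so the bound equals the measured fold and adds no limit. Both groups carried the same dye in this 1.47-fold comparison, but the uninjured signals behind it were not well above background. In the reference channel Reg3b was not well above background on any array (-3.50 to 1.37 units).

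**Figure D2:**
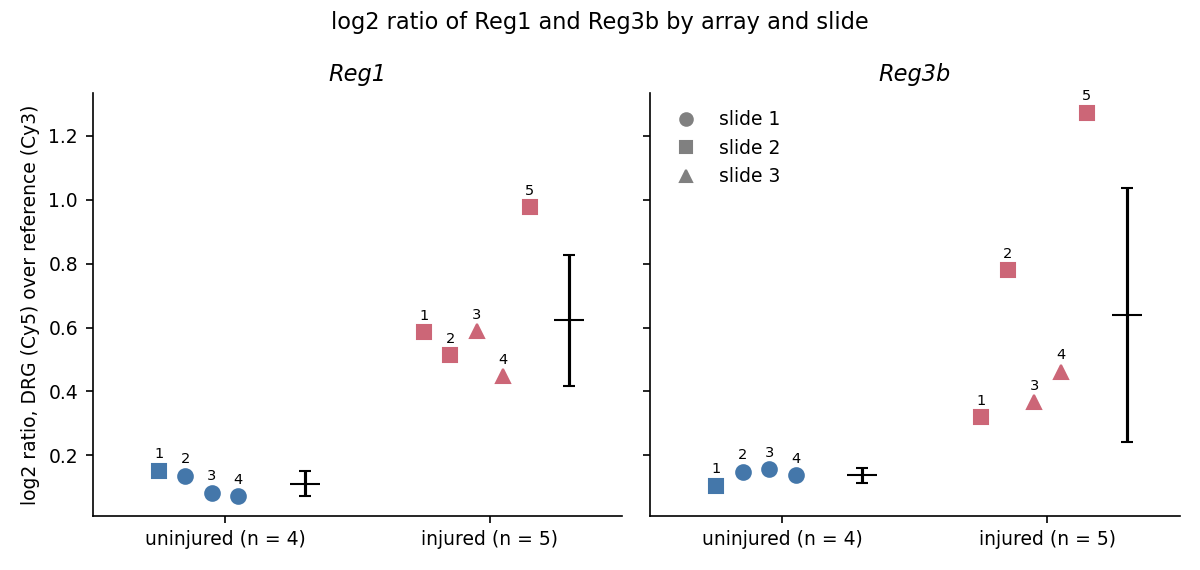
Log2 ratio of DRG (Cy5) over reference (Cy3) for Reg1 and Reg3b on each array, numbered by replicate, with symbols for the 3 slides and the group mean ± SD in black. All injured arrays lie above all uninjured ones for both genes, and injured 5 is highest for both (0.98 and 1.27).

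Single arrays decided on which side of the threshold Reg3b fell. Without injured 1 its change was 0.58 (limma's adjusted p = 0.0334), without injured 3 it was 0.57 (adjusted p = 0.0428), and without injured 5, the highest array, it was 0.34 (adjusted p = 0.0236), since the spread shrank more than the difference. Leaving out any other array kept it above the threshold, up to an adjusted p of 0.116 without uninjured 1. Reg1 stayed called whichever array was left out, with changes between 0.42 and 0.55 and adjusted p up to 0.0130.

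The slides of the arrays overlap with the groups. Slide 1 held uninjured 2, 3 and 4, slide 2 held uninjured 1 with injured 1, 2 and 5, and slide 3 held injured 3 and 4. Within slide 2, Reg1 was 0.15 on the uninjured array and 0.51 to 0.98 on the 3 injured ones, a difference of 0.54. Reg3b was 0.11 on the uninjured array and 0.32 to 1.27 on the injured ones, a difference of 0.68. Both differences were at least as large as those over all arrays. With slide as a fixed term, a fit that rests on this 1 uninjured array, the adjusted p was 0.116 for Reg1 and 0.213 for Reg3b.

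The 2 members were compared with each other directly. The change of Reg3b minus that of Reg1 was -0.0088 on the log2 scale with the offset of 50, but 0.85 without the offset and 1.1 with the scanner software's ratio. Since no uninjured array measured Reg3b, neither the size nor the sign of this difference is settled, and no p is given for it. Over the 9 arrays their log2 ratios had a Pearson r of 0.88, a description in which all points share the array and the group. Injured 5 had the highest ratio for both genes, while the lowest injured array was injured 4 for Reg1 and injured 1 for Reg3b.

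Reg3g, a secreted lectin known to kill Gram-positive bacteria in the gut, stayed near background. Its Cy5 signal was 6.59, 3.25, 3.78 and -2.49 on uninjured and 15.5, 11.8, 18.3, 5.99 and 26.7 on injured arrays. The Cy5 ranges overlapped, with injured 4 below uninjured 1. The log2 ratios were 0.060 to 0.13 on uninjured and 0.17 to 0.28 on injured arrays and did not overlap. The difference in log2 ratio was 0.10, with a two-sided exact permutation p of 0.00794 for this value alone. In a fit without the filter on dim probes, in which limma called 18.4% of 27670 genes and Reg1 alone of the 6 members, Reg3g had an adjusted p of 0.216. As only injured 5 measured Reg3g, no fold is given.

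The other 3 members gave no difference that the test could call. Reg2, a pancreatic relative of Reg1, had Cy5 signals of 7.79 to 27.9 on uninjured and 0.95 to 17.8 on injured arrays, and a difference in log2 ratio of 0.053 (limma's adjusted p = 0.549 without the filter). Its mean Cy5 signal was lower in injured DRG (9.44 against 16.3) while its ratio was slightly higher, so its direction depends on the scale. Reg3a was at 3.07 to 11.6 units on uninjured and 2.16 to 22.3 on injured arrays, with a difference of 0.056 (adjusted p = 0.632). Reg3d was at -4.38 to 11.5 units on uninjured and -1.18 to 16.5 on injured arrays, with a difference of 0.024 (adjusted p = 0.883). At these signals a transcript below the reach of the array cannot be told from an absent one.

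By the filter used for the test, a signal well above background on at least 4 arrays, 2 of the 6 members were tested, and 1 of these was called. Reg3b passed it through injured arrays alone, and the 5 injured arrays would have been enough for Reg1 as well, so the share of tested members that changed supports nothing. Over all genes tested limma called 25.4%, with 11.5% higher and 13.9% lower. For 10.8% of all genes tested, every injured array was above every uninjured one.

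**Figure D3:**
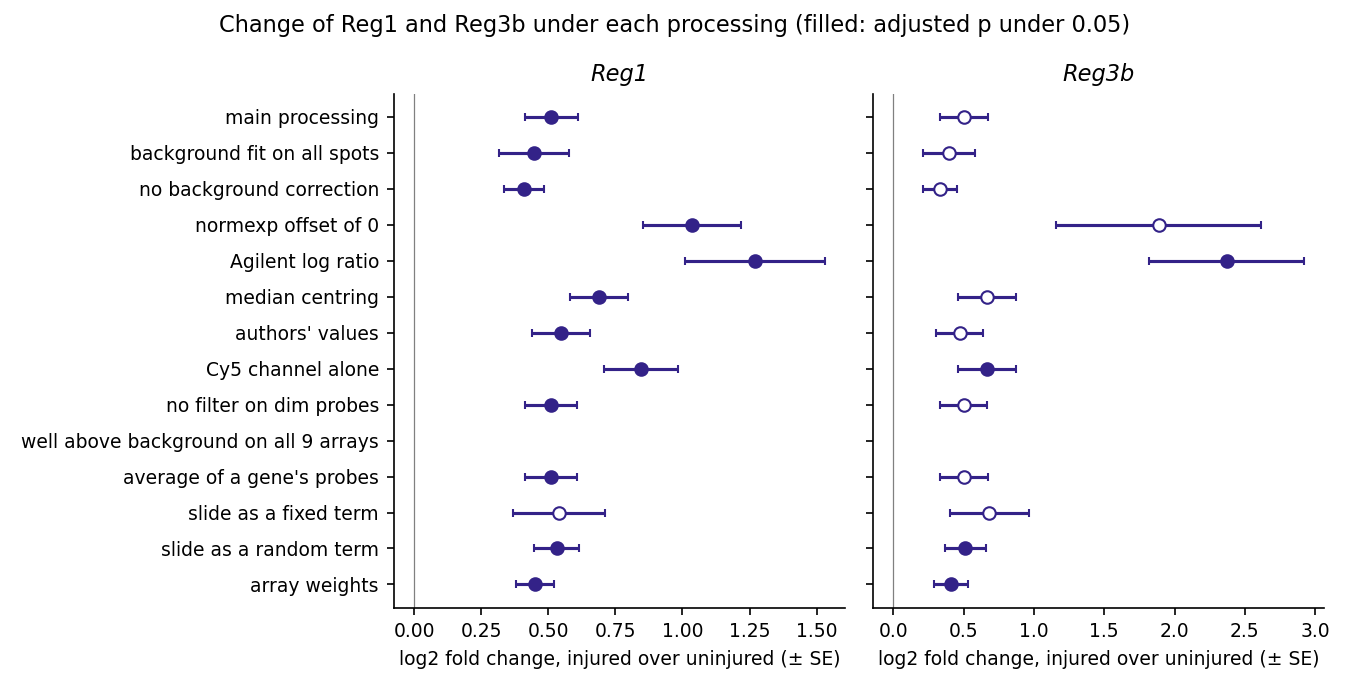
Log2 fold change (± SE) of Reg1 and Reg3b, injured over uninjured, under the main processing and each alternative, filled where limma's adjusted p was under 0.05. Reg1 ranges from 0.41 to 1.27 and loses the call with slide as a fixed term, while Reg3b passes the threshold under 4 alternatives. The filter for all 9 arrays removes both genes.

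The known inputs of Reg genes were also measured. Il6, a gp130 ligand and an inducer of several Reg genes, rose by 2.38 ± 0.088 on the log2 scale (SE, limma's adjusted p = 5.08e-08), from between -1.81 and -1.61 on uninjured to between 0.47 and 0.83 on injured arrays. Of the 6 gp130 ligands tested here, Il6 was called higher, and Cntf (-0.054), Osm (-0.017), Il11 (0.0086), Clcf1 (0.20) and Ctf1 (-0.13) were not called. No probe was matched to Lif, and Il22, the main inducer of Reg3 genes in the gut, was not well above background on any array. Of 8 receptors, the shared chain Il6st, which encodes gp130, rose by 0.35 and Osmr by 0.31, while Il6ra (0.22), Lifr (-0.045), Cntfr (-0.18), Il11ra1 (0.049), Il22ra1 (-0.12) and Il10rb (0.045) were not called.

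Of 7 JAK and STAT transducers, Stat3 (0.36), Jak2 (0.42), Stat5a (0.58) and Stat5b (0.51) rose and none fell. Of 6 genes of JAK-STAT feedback, most of them targets of the same STAT proteins, Cish (1.06), Socs3 (0.72), Socs2 (0.66) and Ptpn2 (0.35) rose. Extl3, a proposed receptor of Reg proteins, was 0.16 higher with an adjusted p of 0.0595 and was not called. Il17ra (0.65), a receptor chain for IL-17, and Myd88 (0.67), an adaptor of Toll-like receptors, rose, Il17rc (0.14) was not called, and Il17a was not well above background on any array. The pathway lists were chosen with earlier results of these data known, so their share of calls is only a description. Over these 5 lists 13 of 31 genes tested (41.9%) were called higher and 0 lower by limma (2 lower at an unadjusted p under 0.05, Jak1 and Ptpn11), against 11.5% higher and 13.9% lower over all genes. In the Cy5 channel alone 12 were higher and Jak1 was called lower. With median centring of each array 5 of the 13 kept the call and with slide as a fixed term 4 did. Il6, Socs3, Cish and Myd88 kept it under all 8 alternatives to the scaling, the background and the slide that were run on these lists.

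**Figure D4:**
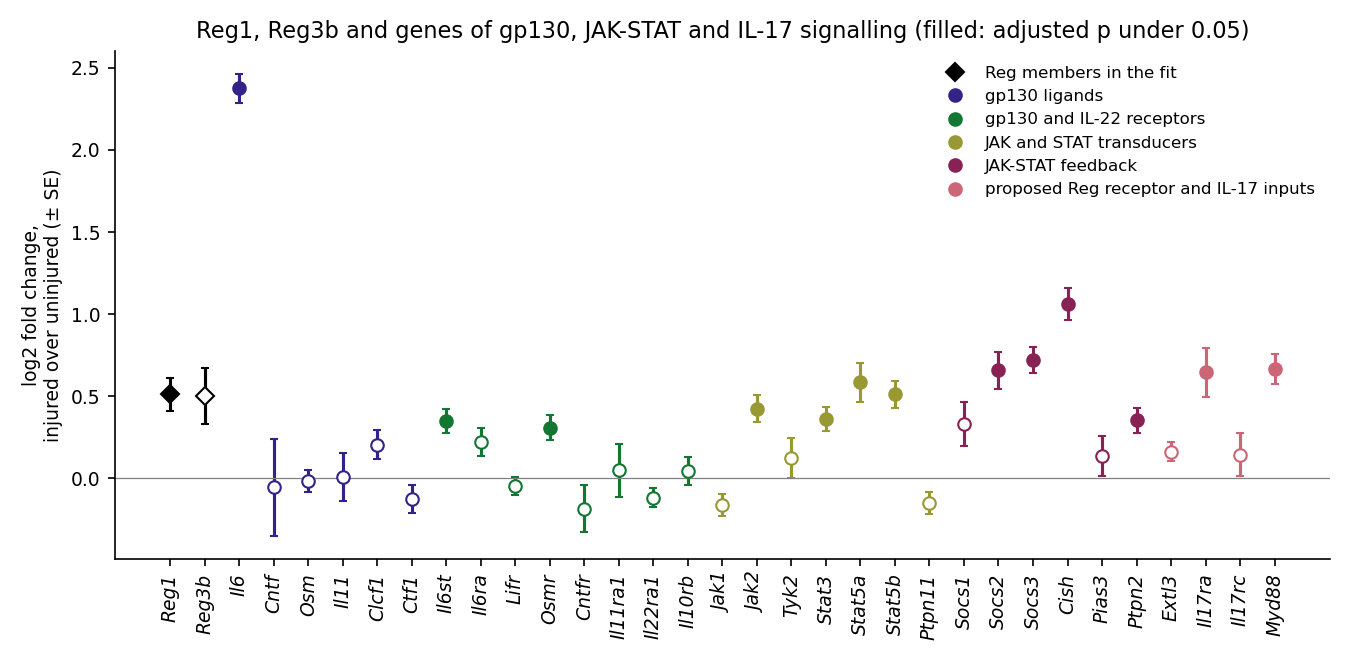
Log2 fold change (± SE), injured over uninjured, of the 2 Reg members tested and of 31 genes of gp130, JAK-STAT and IL-17 signalling, filled where limma's adjusted p was under 0.05. Il6 (2.38) and Cish (1.06) are highest. Socs3 (0.72), Myd88 (0.67), Socs2 (0.66), Il17ra (0.65) and Stat5a (0.58) also lie above Reg1 (0.51) and Reg3b (0.50). Stat5b (0.51) is level with Reg1, and the 13 filled points of these lists lie above 0. The order of the Reg members among these genes depends on the processing. With an offset of 0 Reg1 was 1.04 and Reg3b 1.89, while Socs3 lay between 0.62 and 0.85 under all 8 alternatives.

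The axotomised neuron genes show what the same test gave for the injury response. Atf3 rose by 5.14, Sprr1a by 4.99, Npy by 3.24, Sox11 by 3.15, Jun by 1.77, Gal by 1.76 and Gap43 by 0.62, so that 7 of 7 tested were called, and Vip was not well above background on any array. Gap43 was near the threshold (limma's adjusted p = 0.0466) and was called in 2 of the same 8 alternatives. Jun lost its call with slide as a fixed term.

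Markers of other cells were examined on the same arrays because Reg genes are made in large amounts outside the nervous system. Over all 20903 genes tested limma called 11.5% higher and 13.9% lower, and 3550 were higher and 4107 lower at an unadjusted p under 0.05. Of 12 pancreatic acinar genes tested, Pnlip was called higher (0.39) and Cpb1 lower (-0.74). At an unadjusted p under 0.05 by limma, 2 were higher and 1 lower. The mean of each list was taken as a log2 ratio set against the uninjured mean. For acinar genes it lay between -0.0018 and 0.076 on injured and -0.075 and 0.073 on uninjured arrays. Cela2a and Gp2 were not well above background on any array. Of 7 intestinal epithelium genes tested 0 were called by limma (2 higher at an unadjusted p under 0.05), with the list between 0.019 and 0.30 on injured and -0.025 and 0.020 on uninjured arrays, and Fabp1 was not well above background on any array. Neutrophil genes had a median change of 1.11 with 0 of 6 called (4 higher at an unadjusted p under 0.05), and their list ranged from 0.39 to 3.10 on injured and -0.40 to 0.50 on uninjured arrays, highest on injured 2, with Elane well above background on only 1 array. Of 12 macrophage genes Aif1, Itgam and Cd14 were called higher (9 at an unadjusted p under 0.05), with a median change of 0.64. Their list ranged from 0.12 to 1.05 on injured and -0.41 to 0.36 on uninjured arrays. It was highest on injured 2 (1.05) and injured 5 (1.00), the same 2 arrays on which Reg3b was highest. Macrophage genes were not alone in this. Among injured arrays the red blood cell (1.42 and 1.03), intestinal epithelium (0.30 and 0.28) and satellite glia (0.12 and 0.41) lists were also highest on these 2. Skeletal muscle genes, with 0 of 8 called (1 higher at an unadjusted p under 0.05), stood out on injured 4 (2.97) and injured 2 (1.62), against at most 0.37 on the other injured arrays. Of the remaining lists, Glul was called higher among 8 satellite glia genes (2 higher at an unadjusted p under 0.05). Isl1 was called lower among 14 sensory neuron genes (1 higher and 3 lower at an unadjusted p under 0.05). Of the myelinating Schwann cell genes 0 of 8 and of the red blood cell genes 0 of 4 were called (2 and 3 higher at an unadjusted p under 0.05). The part of these cells in the Reg1 and Reg3b values was not tested.

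**Figure D5:**
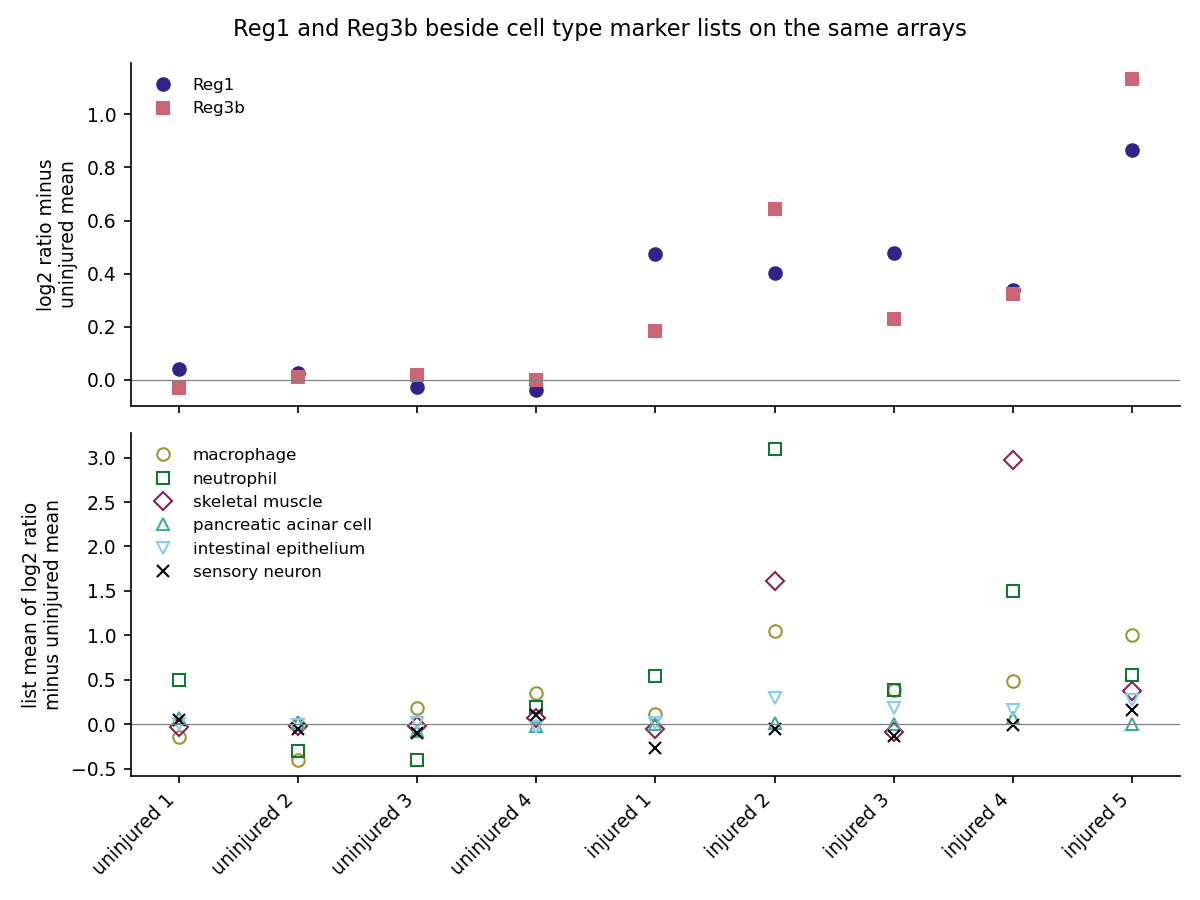
Upper panel, log2 ratio of Reg1 and Reg3b minus its uninjured mean on each of the 9 arrays. Lower panel, mean log2 ratio of 6 marker lists minus their uninjured mean on the same arrays, where neutrophil genes peak on injured 2 (3.10), muscle genes on injured 4 (2.97), and acinar genes stay within 0.076 of 0 on all of them.

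Among 16471 genes with a symbol, those whose log2 ratio followed Reg1 most closely over the 9 arrays were Tmem41b (Pearson r = 0.965), Tirap (0.963), Cd300ld3 (0.960), Supt5 (0.960) and Ephb3 (0.959). All 5 were called higher in injured DRG, with log2 changes from 0.26 for Ephb3 to 0.53 for Supt5. They were chosen by likeness to Reg1, which was itself called, so their calls add no support. These points share arrays, slides and the injury itself, and with the group means removed the r values were between 0.81 and 0.91. These r values come from the same arrays that chose the genes, so they add no support either. None of the 5 is a Reg gene.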

How the data were processed

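Scanner files of 9 two-channel Agilent arrays were used. The mean and local background intensities per channel are as deposited, without normalization. These files also hold log10 ratios that, per the file headers, Agilent's software computed after its own background and dye correction. The authors also deposited log2 ratios of sample over reference, corrected for background and normalized array by array. Their unit, centring and direction follow from a slope of 1.00 to 1.01 against the values computed here (column medians 0.020 to 0.024).

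In R 4.3.3 with limma 3.58.1, normexp (offset 50) was fitted without the 88 spots flagged for non-uniformity, which on injured array 2 had pulled the fit off (slope 0.813 with all spots). Loess within arrays, the average of repeated spots, the filter (31192 of 41174 probes) and the brightest probe per gene followed. Probes were named by RefSeq accession (22951), symbol (6659) or older name (3109), and 8455 kept the file's name. limma's moderated test used Benjamini-Hochberg adjustment at 0.05 and was tested on simulated data. Figures used Python 3.11.15 and matplotlib 3.10.9.

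Members, marker and pathway lists were chosen with earlier results of these data known. Named are all members, all pathway ligands, receptors and called genes, Stat3, Socs3, Extl3, all axotomised neuron genes and the 5 genes most like a called member. Marker genes outside that rule were named with their values known. Alternatives covered background, scaling, filter, slide, array weights and leaving out each array. The number of arrays limits the precision. Probe and protein sequences were not used here, so cross-hybridization between Reg members was not tested. Some genes of the pathway lists are not reported here.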

Additional observations from a re-analysis of the deposited data

Results flagged for a closer look

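Of 14 groups of log2 ratios examined (6 Reg members and Reg4, in 2 groups each), 3 held an array that stood apart from the others by Dixon's criterion, which chance gives in about 5% of groups. Reg1 on injured 5 was at 0.98 against 0.45 to 0.59 on the other injured arrays, and its change without that array was 0.42. Reg3d was at -0.13 on injured 5, where the other 4 injured arrays were between 0.10 and 0.14, and this probe was not well above background on any array. Reg3g was at 0.060 on uninjured 3 against 0.13 on the other 3 uninjured arrays, again without a spot well above background.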

How the results depend on the processing

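Reg1 was called under 11 of the 12 alternatives in which it could be fitted, at 0.41 without background correction to 1.27 with the Agilent log ratio. It was not called with slide as a fixed term (0.54). Reg3b passed the threshold with the Agilent log ratio (2.37), in the Cy5 channel alone (0.67), with slide as a random term (0.51, at an estimated correlation of -0.21 within slides, which narrows the errors) and with array weights (0.41). It did not pass under the other 8, among them an offset of 0, where it was 1.89 (limma's adjusted p = 0.0962). The number of genes called was 2640 with median centring and 1173 with slide as a fixed term, against 5308, and 4012 (without uninjured 1) to 5448 (without injured 5) when 1 array was left out. Leaving out 1 array gave 0.34 to 0.58 for Reg3b and -0.078 to 0.062 for the change of Reg3b minus that of Reg1. That difference, under alternatives chosen after seeing the data, was 0.85 with an offset of 0 and 1.1 with the Agilent log ratio, and -0.18 to -0.020 under the other 5, so its sign is not settled. Among the members too dim for the test, Reg2 was -0.070 without background correction, 0.26 with an offset of 0, -0.58 with the Agilent log ratio, 0.10 in the authors' values and -0.052 in Cy5 alone. Reg3a was 0.29 with an offset of 0, and Reg3d was -0.56 with the Agilent log ratio. Reg3g was 0.39 with an offset of 0, 1.81 with the Agilent log ratio, 0.16 with median centring and 0.17 in Cy5 alone. The cause of these shifts was not tested. The filter for all 9 arrays removed both Reg1 and Reg3b. No paired analysis was possible because no label ties an uninjured sample to an injured one. Signal over background limits the change of every member, including Reg1, which was not well above background on 2 uninjured arrays. Reg3b was well above background on injured arrays only, and each of the other members on at most 1 array.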

Other observations

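Reg4, a family member outside the gene cluster, on another chromosome, was well above background on 1 array, injured 2, and there in both channels (21.8 units in Cy5 and 18.9 in Cy3). On the other 8 arrays its Cy5 signal lay between -5.18 and 9.93 units.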
